A study of Mus musculus with 14 samples.

Results

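Cytoplasmic ribosomal protein genes encode the proteins of the large (Rpl) and small (Rps) subunits of the cytosolic ribosome. They were selected by symbol from the table of counts: Rpl or Rps plus a number with an optional letter, together with Rplp0, Rplp1, Rplp2 and Rpsa. The selection gave 83 of 55291 symbols. Of these, 76 are common members, 46 of the large and 30 of the small subunit, and 7 are paralogs whose symbol ends in l (Rpl3l, Rpl6l, Rpl10l, Rpl32l, Rpl39l, Rps4l, Rps27l), which are described apart. The rule left out 319 symbols with -ps and 9 kinases named after Rps6. It does not reach every ribosomal protein gene: Rps3a1, Fau and Rack1, for example, lie outside it.

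RNA came from the tibia of wild-type female C57Bl/6 mice after sham surgery (sham, 3 libraries) or ovariectomy. From 2 to 4 days after surgery and for 8 weeks, ovariectomised mice received PBS (OVX-PBS, 3 libraries), hippuric acid (OVX-HA, 3), 3'(3'hydroxyphenyl) propionic acid (OVX-PPA, 2) or zoledronic acid (OVX-ZA, 3). Whether sham mice received PBS, and the doses and ages, are unknown here. No label ties a library to an animal of its own, so p-values measure the spread between these samples. Each library held between 11896820 and 35418060 counts.

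Ribosomal proteins are made in matched amounts, because nearly every one is present once in each ribosome, and their mRNAs are among the most abundant in growing cells. Many of these mRNAs begin with a C followed by a run of pyrimidines, the terminal oligopyrimidine (TOP) tract, through which mTORC1 and LARP1 control their translation. Ribosomal protein genes have also left many processed pseudogenes in mammalian genomes, copies made from their spliced mRNA. In bone marrow, erythroid precursors depend strongly on ribosome supply, and mutations in several of these genes cause Diamond-Blackfan anaemia.

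The first bases of the transcripts are shown for some of the members named below, since the TOP tract is the sequence feature that defines the family's translational control. Windows from RefSeq (GRCm38.p6) matched 61 of the 83 members by symbol. Each sequence runs 5′ to 3′ on the gene strand, with 15 bases before the annotated start and 15 from it on. Capitals mark a C followed by at least 4 further C or T, beginning within 10 bases of the start. The first group carries such a tract: Rps6 (chr4:86857353-86857382, minus strand), Rplp2 (chr7:141447636-141447665, plus), Rpl15 (chr14:18270972-18271001, minus), Rps10 (chr17:27635230-27635259, minus), Rps27 (chr3:90213634-90213663, minus) and Rpl13a (chr7:45128731-45128760, minus).
Rps6: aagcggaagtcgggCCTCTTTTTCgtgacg
Rplp2: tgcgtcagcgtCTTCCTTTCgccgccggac
Rpl15: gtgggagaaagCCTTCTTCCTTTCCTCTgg
Rps10: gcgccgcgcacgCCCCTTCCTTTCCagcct
Rps27: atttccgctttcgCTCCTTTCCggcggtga
Rpl13a: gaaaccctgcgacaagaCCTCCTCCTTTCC

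The windows of Rpl11 (chr4:136053379-136053408, minus) and Rpl9 (chr5:65391417-65391446, minus) hold no such run. Among named members not shown, the windows of Rplp0, Rpl5, Rpsa, Rpl10, Rps13, Rps15 and Rpl41 hold none either, and those of Rps2, Rps12 and Rpl34 do. The sequences printed are therefore not a measure of how usual the tract is. Among the paralogs, the window of Rpl3l (chr17:24727811-24727840, plus) holds a run of 5 and that of Rpl32l (chr10:20208424-20208453, plus) a run of 10.
Rpl11: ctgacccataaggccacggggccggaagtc
Rpl9: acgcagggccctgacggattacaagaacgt
Rpl3l: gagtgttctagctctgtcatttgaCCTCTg
Rpl32l: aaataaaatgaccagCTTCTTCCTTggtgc

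A tract was present in 36 of 66 start windows of the common members (54.5%) and in 30.7% of the 32851 windows of all genes. A run of 8 or more pyrimidines was present in 34.8% of members' windows and in 8.11% of all windows. In the wider 300-base window around the start, read on both strands, the ETS core CGGAAG occurred in 62.1% of members' windows against 16.9% of all. The GC box GGGCGG occurred in 60.6% against 35.7%, the YY1 core AAGATGG in 16.7% against 6.34%, and TATAAA in 9.09% against 13.6%. These are matches of letters near annotated starts, which can lie some bases away from the starts used in bone.

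Counts of single members depend on how reads shared with other genes were assigned. Every 75-base window, the read length, of each common member's main transcript was looked up in the transcripts of all other genes of GENCODE M21. At least 1 window recurred elsewhere for 74 of 76 members. The median member shared 49.2% of its windows. In 637 annotated pseudogenes with a shared window, 0.880 to 1.47% of a library's counts were recorded, and the common members together held 0.743 to 1.35%. Values that depart from a whole number by more than 0.01 made up 95.1% of the members' values above 0. No source used here says how reads that match several genes were counted.

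The clearest cases were members at low levels. Rpl23a, a protein at the rim of the exit tunnel, held 268 counts over the 14 libraries, and the pseudogenes sharing its sequence held 144336. The row Rpl23a-ps3 alone held 80164. Rpl36a held 1019 counts and its -ps rows 53127. Rps27 shared 98.5% of its windows, and was recorded at 1.21 to 2.78 CPM (counts scaled to a common library total after adjustment by TMM, trimmed mean of M-values) while the retrogene Rps27rt was recorded at 176 to 267 CPM. A low level of such a member cannot be read as low expression of the gene.

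**Figure D1:**
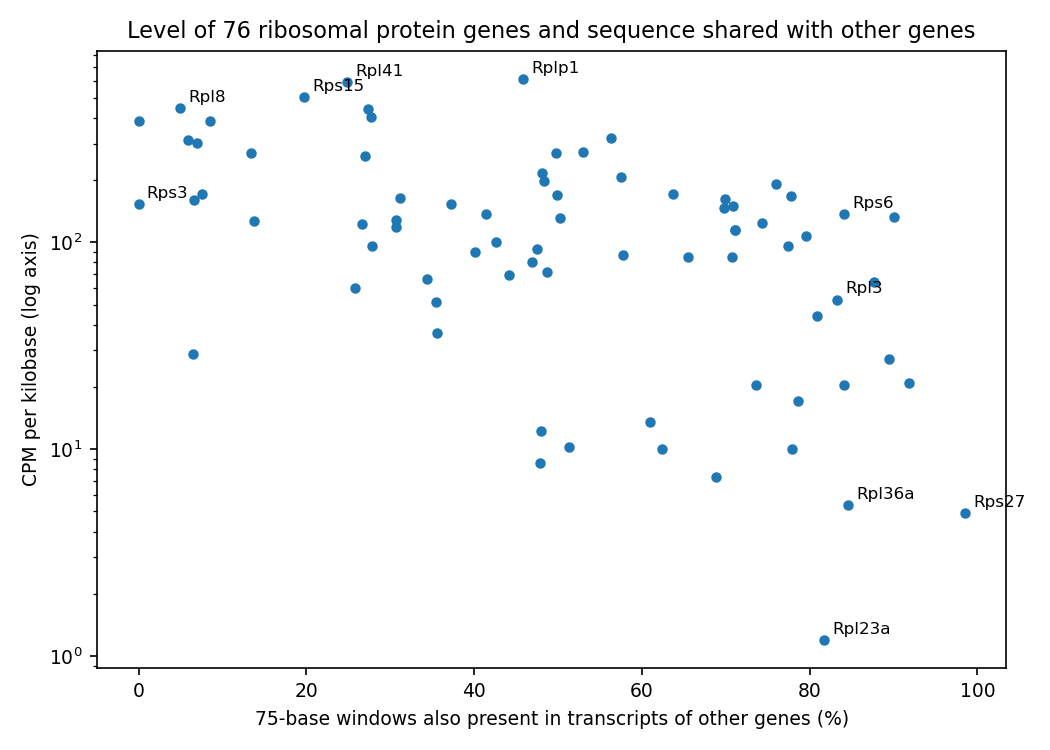
Mean CPM per kilobase of transcript (y axis, log scale) against the share of 75-base windows also found in transcripts of other genes (x axis), 1 point for each of 76 common members. The 36 members sharing at least 50% had a median of 85.8 CPM per kilobase and the 40 others a median of 153.

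Per kilobase of transcript, the mean levels of the common members spanned 514-fold, with a median of 121 CPM per kilobase. The highest were Rplp1, an acidic protein of the P stalk, at 617, Rpl41, the shortest ribosomal protein, at 593, and Rps15 at 503. The lowest were Rpl36a at 5.38, Rps27 at 4.92 and Rpl23a at 1.20. Across the 76 genes, level per kilobase and percentage of shared windows had a Spearman rho of -0.504, given as a description, since genes are not independent replicates.

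The 76 genes moved together from library to library. Their mean level in log2 CPM was 5.81, 6.02 and 5.99 after sham surgery. In the OVX-PBS libraries it was 6.24, 6.11 and 5.86, with OVX-HA at 5.83, 6.63 and 5.74. The 2 OVX-PPA libraries had 6.01 and 5.77, and OVX-ZA had 5.84, 5.88 and 5.84. OVX-HA replicate 2 stood above the other 13 libraries, and the ranges of all 5 groups overlapped. As a share of the unadjusted library total, the counts of the 76 genes came to 0.893 ± 0.099% (sham), 0.912 ± 0.027% (the OVX-PBS group), 0.967 ± 0.332% (OVX-HA), 0.845 ± 0.044% (OVX-PPA) and 0.834 ± 0.046% (OVX-ZA) (mean ± SD; n = 2 for OVX-PPA, otherwise 3).

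OVX-HA replicate 2 had the highest CPM of all libraries for 75 of the 76 genes. The exception was Rps2, a protein at the mRNA entry channel, which was highest in OVX-PBS replicate 1 at 156 CPM, with OVX-HA replicate 2 at 141. On this TMM-adjusted scale, OVX-PBS replicate 1 was among the highest 2 libraries for 50 genes. By share of the unadjusted total, OVX-HA replicate 2 was again the highest library at 1.35%, but OVX-PBS replicate 1, at 0.919%, lay below sham replicate 2 (1.00%) and OVX-PBS replicate 2 (0.936%). The lowest library was OVX-HA replicate 3 for 25 genes and OVX-PPA replicate 2 for 19.

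The same 2 libraries stood apart in cell type markers. Bone was represented in every library (Col1a1, the main bone collagen chain, 724 to 4974 CPM; Bglap, osteocalcin, 51.1 to 361 CPM), and so was skeletal muscle (Ckm, muscle creatine kinase, 3407 to 7965 CPM). The mean of 14 central nervous system markers, genes of neurons and glia, was 3.06 log2 CPM for OVX-HA replicate 2, 3.44 for OVX-PBS replicate 1, and 6.24 to 7.63 elsewhere (12 libraries, called nervous-tissue libraries below). Mog, a myelin protein of oligodendrocytes, was at 0.117 and 0.343 CPM there, and Olig2 was at 0 in OVX-HA replicate 2. The mean of 15 erythroid markers was 9.78 and 9.16 in these libraries against 8.10 to 8.93 in the others, that of 10 markers of dividing cells 6.77 and 6.204 against 5.17 to 5.92, and that of 10 osteoblast and osteocyte markers 7.08 and 6.62 against 5.42 to 6.39. The part of these cell types in the ribosomal protein levels was not tested, and in bulk tissue fewer cells of a type and less RNA per cell cannot be told apart.

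**Figure D2:**
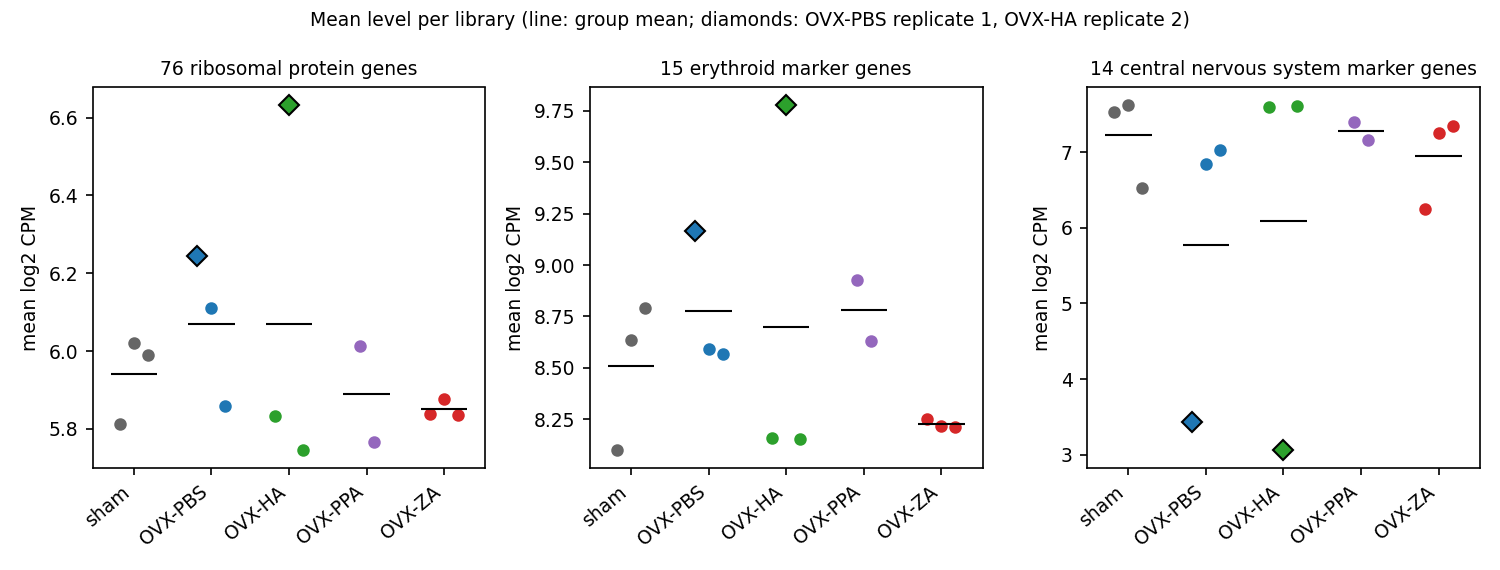
Mean log2 CPM per library of the 76 common ribosomal protein genes, 15 erythroid markers and 14 central nervous system markers, by group (1 point per library, line at the group mean). The diamonds, OVX-HA replicate 2 and OVX-PBS replicate 1, lie highest in the first 2 panels (6.63 and 6.24; 9.78 and 9.16) and lowest in the third (3.06 and 3.44).

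Apart from this common movement the genes kept close ratios to each other. After subtraction of the library's mean over the 76 genes, the SD over the 14 libraries had a median of 0.10 log2 units among the 68 members with a mean of at least 10 CPM, whereas the mean itself had an SD of 0.24. Rpl8 (SD 0.04), Rpl32 and Rpl13a held the steadiest ratio to the mean. Rpl9 (0.21), Rps13 and Rps12 varied most. Their means of 13.8, 10.1 and 13.5 CPM lay close to the cutoff, and they shared 84.2, 78.6 and 89.5% of their windows with other genes. Rpl8, Rpl32 and Rpl13a shared 4.89, 5.87 and 56.3%. Low counts and shared reads were not separated from variation of the genes themselves. Relative to its own median, the log2 ratio of Rpl9 was 0.44 in OVX-HA replicate 2 and -0.31 in OVX-ZA replicate 3. The small subunit genes exceeded the large subunit genes by 0.49 to 0.58 log2 units in mean recorded level in every library. These levels were not divided by transcript length, and reads shared with pseudogenes lower some of them. Members with a mean under 10 CPM were Rpl23a, Rpl36a, Rpl38, Rpl27, Rpl17 and Rpl31 in the large subunit and Rps27 and Rps7 in the small. The offset is therefore not a measure of subunit amounts.

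Ovariectomy was compared with sham surgery. Of the 76 genes, 68 had a higher and 8 a lower fitted level in OVX-PBS, with a median log2 fold change of 0.13, beside 0.01 over all 21761 genes tested. None passed a false discovery rate (FDR) of 0.05 (edgeR quasi-likelihood test, Benjamini-Hochberg adjusted p of at least 0.913; 0.0% of all genes passed), 0 had an unadjusted p under 0.05 (2.73% of all genes), and DESeq2 called 0. Rpl34 was the 1 gene whose libraries did not overlap, at 62.3, 63.1 and 58.8 CPM in sham and 79.2, 76.5 and 64.2 in OVX-PBS (4.03% of all genes were higher without overlap). Its log2 fold change was 0.25 (95% interval -0.19 to 0.70). The smallest p among the 76 was that of Rps2, at 106, 99.8 and 113 CPM in sham and 156, 123 and 110 in OVX-PBS, with a log2 fold change of 0.28 ± 0.157 (SE) and an adjusted p of 0.913. In the 12 nervous-tissue libraries, the median was 0.06 with 55 genes higher. Marker lists moved as well: over all libraries the medians were 0.26 for erythroid cells (15 of 15 higher), 0.25 for dividing cells (10 of 10), 1.10 for B cell precursors (12 of 12) and -0.88 for the central nervous system (14 of 14 lower). In the 12 libraries they were 0.03, 0.05, 1.35 and -0.34. Skeletal muscle markers were at 0.34 over all libraries and 0.25 in the 12 (14 of 14 higher in both). Osteoblast and osteocyte markers were at 0.28 and 0.14 (8 of 10 higher in both), and adipocyte markers at 0.11 and 0.10. Lymph node and T cell markers were at -0.59 and -0.57 (8 of 10 lower in both), osteoclast markers at -0.08 and -0.04, and neutrophil markers at -0.07 and 0.16. The part of these cells in the difference was not tested.

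Zoledronic acid is a bisphosphonate that blocks bone resorption by osteoclasts. In OVX-ZA, 75 of 76 genes had a lower fitted level than in OVX-PBS, with a median log2 fold change of -0.22 beside -0.04 over all genes. None passed the FDR (edgeR, adjusted p of at least 0.899, with 0.0% of all genes passing). DESeq2 called 0 of the members and 30 of 28214 genes. The 2 genes with an unadjusted p under 0.05, both lower (2.04% of all genes), were Rpl11 and Rpl15. Rpl11, which with Rpl5 and the 5S RNA forms the particle that restrains Mdm2, was at 14.4, 13.2 and 10.6 CPM in OVX-PBS. In OVX-ZA it was at 8.82, 10.1 and 8.21, with no overlap. Its log2 fold change was -0.49 ± 0.185 (edgeR adjusted p = 0.899). Rpl11 held 4436 counts over the 14 libraries and the pseudogenes sharing its windows 74523, so these values need not follow the gene's own level.

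Rpl15, of the large subunit, was at 134, 111 and 97.8 CPM in OVX-PBS and 87.0, 87.8 and 91.5 in OVX-ZA, with a log2 fold change of -0.36 ± 0.157. In both genes every OVX-ZA library lay below every OVX-PBS library. Rps10, of the small subunit, was at 77.4, 77.9 and 63.8 CPM in OVX-PBS and 55.7, 52.8 and 55.1 in OVX-ZA, again without overlap. In all, 22 members were lower without overlap (9.96% of all genes were). Rpl5, the partner of Rpl11, was at 22.2, 16.2 and 14.5 CPM against 19.7, 16.8 and 14.98. Its log2 fold change was -0.04 (95% interval -0.47 to 0.39). The same limit holds for Rpl5, with 6804 counts against 176181 in its pseudogenes. It also holds for Rpl15, with 38976 against 62535, and for Rps10, with 26279 against 56939, and is not confined to these genes. In the 12 nervous-tissue libraries the median was -0.11, with 67 genes lower, and 6 genes had an unadjusted p under 0.05, all lower (2.25% of all genes). There 0 members passed the FDR by edgeR, and 6 of all 21603 genes did. Markers of marrow cells were lower too, with medians of -0.60 for erythroid cells (15 of 15 lower), -0.62 for dividing cells (10 of 10) and -0.87 for B cell precursors (12 of 12). They were -0.33, -0.39 and -1.08 in the 12 libraries. Osteoblast and osteocyte markers were at -0.68 (7 of 10 lower) over all libraries and -0.47 (6 of 10) in the 12. Other lists went the opposite way. Osteoclast markers were at 1.35 and 1.32 (8 of 8 higher in both). Lymph node and T cell markers were at 0.97 (9 of 10 higher) and 1.02 (8 of 10), and central nervous system markers at 0.58 (14 of 14 higher) and 0.10 (12 of 14). The part of these cells in the lower ribosomal protein levels was not tested.

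In OVX-PPA, 72 of 76 genes had a lower fitted level than in OVX-PBS, with a median of -0.18 beside -0.02 over all genes. None passed the FDR (edgeR, adjusted p of 1.00; 0.0% of all genes), 0 had an unadjusted p under 0.05 (1.87%), and DESeq2 called 0. The libraries of 14 genes were lower without overlap (8.77% of all genes), with 2 libraries in the group. The smallest p was that of Rpl36 of the large subunit, at 67.2, 69.9 and 54.0 CPM in OVX-PBS and 53.9 and 45.0 in OVX-PPA (log2 fold change -0.37 ± 0.189). Rps21 was at 80.4, 75.8 and 58.6 CPM against 58.4 and 48.0 (-0.43 ± 0.235). Without OVX-PBS replicate 1 and OVX-HA replicate 2 the median was -0.09, with 64 genes lower. There 5 genes had an unadjusted p under 0.05 by edgeR, all lower (1.86% of all genes, either direction), and 0 passed the FDR. Erythroid markers had a median of -0.06 over all libraries and 0.21 in the 12 (15 of 15 higher), and central nervous system markers 0.85 and 0.34 (14 of 14 higher in both). Skeletal muscle markers had -0.32 (14 of 14 lower) and -0.24 (13 of 14), and adipocyte markers -0.16 (8 of 8 lower) and -0.09 (6 of 8). Lymph node and T cell markers had -0.25 and -0.34 (8 of 10 lower in both), and dividing cell markers -0.04 (8 of 10 lower) and 0.11 (10 of 10 higher). The part of these cells was not tested.

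In OVX-HA, 50 genes were fitted higher and 26 lower than in OVX-PBS, with a median of 0.05 beside 0.01 over all genes. None passed the FDR (edgeR, adjusted p of 1.00; 0.0% of all genes), 0 had an unadjusted p under 0.05 (1.47%), 0 were free of overlap (4.08%), and DESeq2 called 0. The sign changed when either of 2 libraries was left out. Without OVX-HA replicate 2 the median was -0.32, with 3 genes higher, and without OVX-PBS replicate 3 it was -0.04, with 27 genes higher. In the 12 nervous-tissue libraries, which also leave out OVX-PBS replicate 1, the median was -0.25, again with 3 genes higher, and 18 genes had an unadjusted p under 0.05, all lower (3.51% of all genes). None of the 18 passed the FDR (edgeR, smallest adjusted p = 0.682). In the same 12 libraries the marker medians were -0.49 for erythroid cells (14 of 15 lower), -0.54 for dividing cells (10 of 10), -0.46 for osteoblasts and osteocytes (10 of 10) and 0.63 for the central nervous system (14 of 14 higher), against 0.12, 0.07, -0.03 and 0.62 over all libraries. Their part was not tested.

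Rps10 illustrates this. Its 3 OVX-HA libraries were at 60.8, 116 and 54.1 CPM and its OVX-PBS libraries at 77.4, 77.9 and 63.8, so that replicates 1 and 3 lay below all OVX-PBS libraries and replicate 2 above them. Its log2 fold change was 0.07 over all libraries and -0.33 in the 12. Rps6, whose protein is the S6 kinase substrate in the small subunit, was at 90.8, 208 and 102 CPM in OVX-HA and 140, 115 and 94.6 in OVX-PBS. Its 2 fold changes were 0.20 (95% interval -0.37 to 0.77) and -0.15. Rps10 and Rps6 shared 90.1 and 84.1% of their windows with other genes, so these values need not follow the genes' own levels.

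The 2 phenolic acids differ in that hippuric acid is a benzoyl group joined to glycine, whereas 3'(3'hydroxyphenyl) propionic acid carries a hydroxyl on its ring and a propionic acid chain. This was the single pair of compounds compared, at doses that are unknown here. Between OVX-HA and OVX-PPA, 74 genes were fitted higher in OVX-HA, with a median of 0.24 beside 0.02 over all genes. None passed the FDR (edgeR, adjusted p of 1.00; 0.0% of all genes), 0 had an unadjusted p under 0.05 (1.19%), and DESeq2 called 0. Rps27 was the 1 gene without overlap (6.64% of all genes were higher without overlap), at 1.97, 2.78 and 1.74 CPM against 1.68 and 1.30. Its log2 fold change was 0.55 (95% interval -0.00 to 1.10). Rps27 shared 98.5% of its windows and held 675 counts over the 14 libraries, so these values need not follow the gene's own level. Without OVX-HA replicate 2 the median turned to -0.15, with 6 genes higher. Erythroid and dividing cell markers had medians of 0.12 and 0.12 over all libraries and -0.70 and -0.63 in the 12, and their part was not tested. The intervals remained wide, for example -0.31 to 0.68 for Rplp0, so that similar levels were not shown either. The comparisons with OVX-PBS share its 3 libraries, and a high level there moves all of them.

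**Figure D3:**
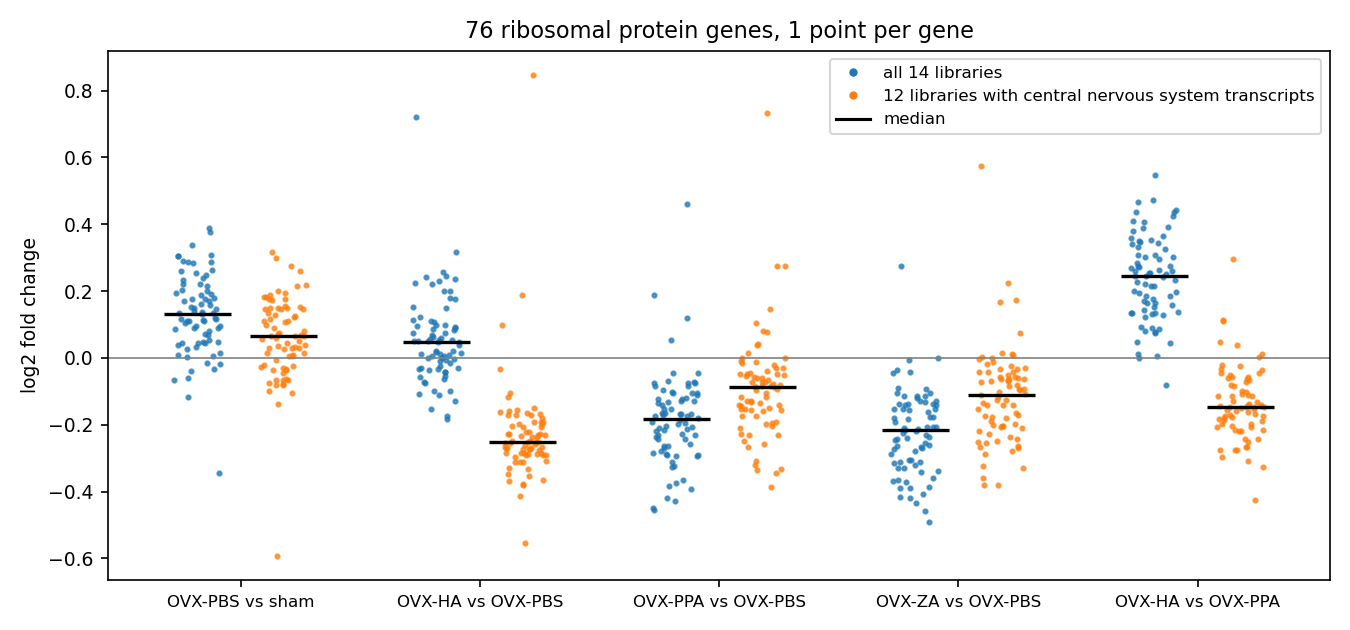
Log2 fold change of each of the 76 common members in 5 comparisons (points; black line, median), fitted on all 14 libraries (blue) and on the 12 nervous-tissue libraries (orange). The median of OVX-HA against OVX-PBS lies at 0.05 in blue and -0.25 in orange, and that of OVX-ZA against OVX-PBS at -0.22 and -0.11.

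The P stalk proteins Rplp0, Rplp1 and Rplp2, which recruit translation factors, were lower in fitted level in OVX-ZA (3 of 3; median -0.21) and OVX-PPA (3 of 3; -0.29), each against OVX-PBS. In the 12 nervous-tissue libraries these medians were -0.10 and -0.15, again with 3 of 3 lower. The whole family had -0.22 (75 of 76 lower) and -0.18 (72 of 76 lower) over all libraries, so the P stalk moved as the family did. Rplp0 was at 719, 652 and 553 CPM in OVX-PBS, 573, 538 and 558 in OVX-ZA and 564 and 544 in OVX-PPA, with overlapping ranges. A chosen list of 9 Diamond-Blackfan anaemia genes, which need not hold every such gene, was set beside them. Its median was 0.16 in OVX-PBS against sham (9 of 9 higher) and -0.21 in OVX-ZA against OVX-PBS (9 of 9 lower). Of these 9 genes, 0 passed the FDR by edgeR. The whole family had 0.13 (68 of 76 higher) and -0.22 (75 lower). In the 12 libraries the medians of the 9 genes were 0.11 (6 of 9 higher) and -0.06 (7 of 9 lower). Erythroid markers moved in the same direction in these comparisons, at 0.26 and -0.60 over all libraries and 0.03 and -0.33 in the 12. In OVX-PPA against OVX-PBS the 9 genes had -0.18 (9 of 9 lower) and -0.06 in the 12 libraries (7 of 9). Erythroid markers had -0.06 there (8 of 15 lower) and 0.21 in the 12 libraries (15 of 15 higher). The part of erythroid cells was not tested. Rps19, the gene most often mutated in that anaemia, was at 95.5, 103 and 106 CPM in sham and at 139, 122 and 94.7 in OVX-PBS. The OVX-ZA libraries had 94.5, 98.1 and 88.2 CPM, and the ranges overlapped. Single members of other roles ranged widely in level, each highest in OVX-HA replicate 2. Rpsa, the laminin receptor protein of the small subunit, ranged from 254 to 459 CPM, Rps14 from 133 to 230, and Rps27a, made as a fusion with ubiquitin, from 41.6 to 98.6. In the large subunit, Rpl13a ranged from 277 to 554 CPM, Rpl22 from 125 to 208, and Rpl10 from 12.6 to 26.3. The 8 genes at the exit tunnel and its rim had a median of -0.17 in OVX-ZA, and the 5 at the mRNA channel -0.12, which in the 12 libraries were -0.05 and -0.03. In OVX-HA against OVX-PBS, the medians of the P stalk, Diamond-Blackfan, exit tunnel and mRNA channel genes were -0.03, 0.05, 0.00 and 0.05 over all libraries and -0.29, -0.26, -0.26 and -0.24 in the 12.

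Among the paralogs, Rpl3l, which replaces Rpl3 in ribosomes of striated muscle, was the most abundant. It was at 156, 97.5 and 194 CPM after sham surgery and at 253, 215 and 143 in OVX-PBS. The OVX-HA libraries had 155, 135 and 191 CPM, those of OVX-PPA 156 and 142, and those of OVX-ZA 163, 150 and 194. Per kilobase its recorded level was 1.14 to 3.33 times that of Rpl3. Rpl3, however, shared 83.2% of its windows with 8 pseudogenes, which held 117684 counts against its own 28246. With these counts added to Rpl3, a choice made after they were seen, the ratio was 0.221 to 0.683, so that the order of the pair turned in every library. Rpl3l followed the mean of 14 skeletal muscle markers across the 14 libraries (Pearson r = 0.938, permutation p = 1e-05, the smallest that 100000 resamples can give, adjusted 2e-05; Spearman rho = 0.873, permutation p = 1e-04, adjusted 2e-04). Without the 2 libraries farthest from the median, r was 0.905. For Rpl3, the second of 2 relations computed, r was -0.514 (permutation p = 0.0576) and rho -0.411 (p = 0.144).

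**Figure D4:**
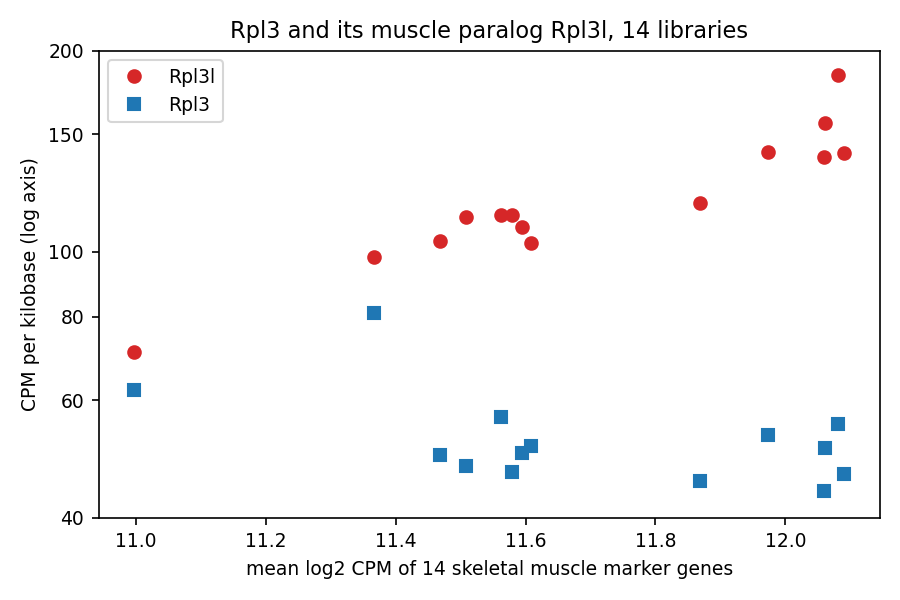
CPM per kilobase (y axis, log scale) of Rpl3l (circles) and Rpl3 (squares) against the mean log2 CPM of 14 skeletal muscle markers (x axis), 1 point per library. Rpl3l runs from 70.9 to 184 and rises with the markers, and the counts recorded for Rpl3, without those of its pseudogenes, lie below it in all 14 libraries.

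Rpl32l, annotated as a processed pseudogene in GENCODE M21, was at 2.58, 2.82 and 2.60 CPM in sham and 4.86, 5.42 and 4.08 in OVX-PBS, without overlap. Its log2 fold change was 0.84 ± 0.231 (unadjusted p = 0.00328, edgeR adjusted p = 0.913), and it was 0.85 in the 12 nervous-tissue libraries. In OVX-ZA it was at 3.79, 2.64 and 3.22 CPM (-0.58 ± 0.233 against OVX-PBS) in OVX-PPA at 3.74 and 2.50, and in OVX-HA at 4.73, 6.00 and 3.57, which overlap OVX-PBS. Rpl32 itself was at 143, 174 and 157 CPM in sham and 186, 180 and 156 in OVX-PBS. Rps27l, a p53-responsive paralog of Rps27, ranged from 25.2 to 38.3 CPM. Rps4l, annotated as a processed pseudogene, ranged from 6.19 to 10.2 CPM and was at 6.60, 6.93 and 6.19 in OVX-ZA, below every OVX-PBS library (7.38, 9.29 and 8.48). Rpl6l, also so annotated, ranged from 48.1 to 76.1 CPM, Rpl39l from 0 to 0.271, and Rpl10l, known from testis, had 0 counts in all 14 libraries.

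Other genes of the translation machinery were set beside the members. The 15 other translation genes with a TOP tract had a median of 0.13 in OVX-PBS against sham (13 higher), -0.01 in OVX-HA, -0.11 in OVX-PPA (15 of 15 lower) and -0.12 in OVX-ZA (13 lower), each of the last 3 against OVX-PBS. Eif3f, an initiation factor subunit, was at 147 ± 18.1 CPM (SD, n = 3) in OVX-PBS and 124 ± 0.804 (n = 2) in OVX-PPA. Eef1g, an elongation factor subunit, was at 160 ± 19.5 and 134 ± 9.07 in the same groups. The 10 snoRNA host genes, whose introns hold guides of ribosomal RNA modification, had medians of 0.19, 0.12, -0.13 and -0.34 in the same order. In the 12 nervous-tissue libraries the TOP genes had 0.06, -0.15, -0.05 and -0.03, and the snoRNA hosts 0.06, -0.22 (10 of 10 lower), 0.02 and -0.15. Snhg8 was at 20.6 ± 5.23 CPM in OVX-PBS and 13.97 ± 0.427 in OVX-ZA, and Snhg12 at 19.5 ± 3.88 and 14.6 ± 1.27.

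Medians of the genes that make ribosomes were nearer to 0 than those of the common members in each of these comparisons, though not always nearer than those of the TOP genes. RNA polymerase I and its factors (14 genes) had medians of 0.07, 0.01, -0.08 and -0.11, and the 50 assembly factors 0.05, 0.01, -0.06 and -0.07. In the 12 libraries the first had 0.05, -0.12, -0.06 and -0.03, and the second 0.03, -0.09, -0.02 and -0.02. Ubtf, which organises ribosomal DNA for transcription, was at 118 ± 12.6 CPM in OVX-PBS and 96.9 ± 4.88 in OVX-ZA. Rrp9, of the small nucleolar U3 particle, was at 13.7 ± 0.540 and 11.4 ± 0.647. Taf1a, of the polymerase I selectivity factor, was at 8.79 ± 0.813 CPM in OVX-PBS and 10.9 ± 0.860 in OVX-HA. Bop1, an assembly factor of the large subunit, was at 27.96 ± 0.910 in OVX-PBS and 23.6 ± 2.26 (n = 2) in OVX-PPA. The 19 mTORC1 and TOP regulators had medians of 0.05, 0.02, -0.03 and -0.05, and Eif4ebp1, the translation repressor that mTORC1 inactivates, was at 40.02 ± 8.39 CPM in OVX-PBS and 31.9 ± 5.46 in OVX-HA. The 13 p53 targets and genes of ribosomal stress had medians of 0.07, -0.03, -0.06 and -0.06. Those of the 12 libraries were 0.01, -0.06, 0.04 and 0.01 for the regulators and 0.05, -0.07, -0.01 and -0.04 for the p53 list. Bbc3, which encodes the pro-apoptotic PUMA, was at 6.30 ± 1.55 CPM in OVX-PBS and 4.63 ± 0.144 in OVX-ZA. Sesn2, an inhibitor of mTORC1, was at 13.1 ± 1.03 in sham and 11.4 ± 0.621 in OVX-PBS, and Larp4, which binds poly(A) tails, at 39.99 ± 2.52 and 45.2 ± 0.530. Among relatives of the members outside the rule, Rpl36al was at 89.02 ± 11.04 CPM in OVX-PBS and 76.1 ± 2.95 in OVX-ZA, and Rpl7l1 at 42.8 ± 3.04 and 36.9 ± 1.32. None of the genes in these lists passed the FDR by edgeR.

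The 78 mitochondrial ribosomal protein genes, which encode the ribosome of the organelle, had medians of 0.12 (73 higher), -0.14 (75 lower), -0.20 (74 lower) and -0.19 (76 lower). In the 12 libraries they were 0.07, -0.13, -0.11 and -0.09. In OVX-HA replicate 2 their mean was 4.80 log2 CPM, within the 4.604 to 4.97 of the 12 nervous-tissue libraries, whereas the cytosolic set was at its highest there. Mrps26 was at 26.2 ± 2.43 CPM in OVX-PBS and 19.1 ± 0.821 (n = 2) in OVX-PPA (unadjusted p = 0.00301, edgeR adjusted p of 1.00). Mrpl15 was at 51.4 ± 9.60 CPM in OVX-PBS and 38.4 ± 3.43 in OVX-ZA.

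**Figure D5:**
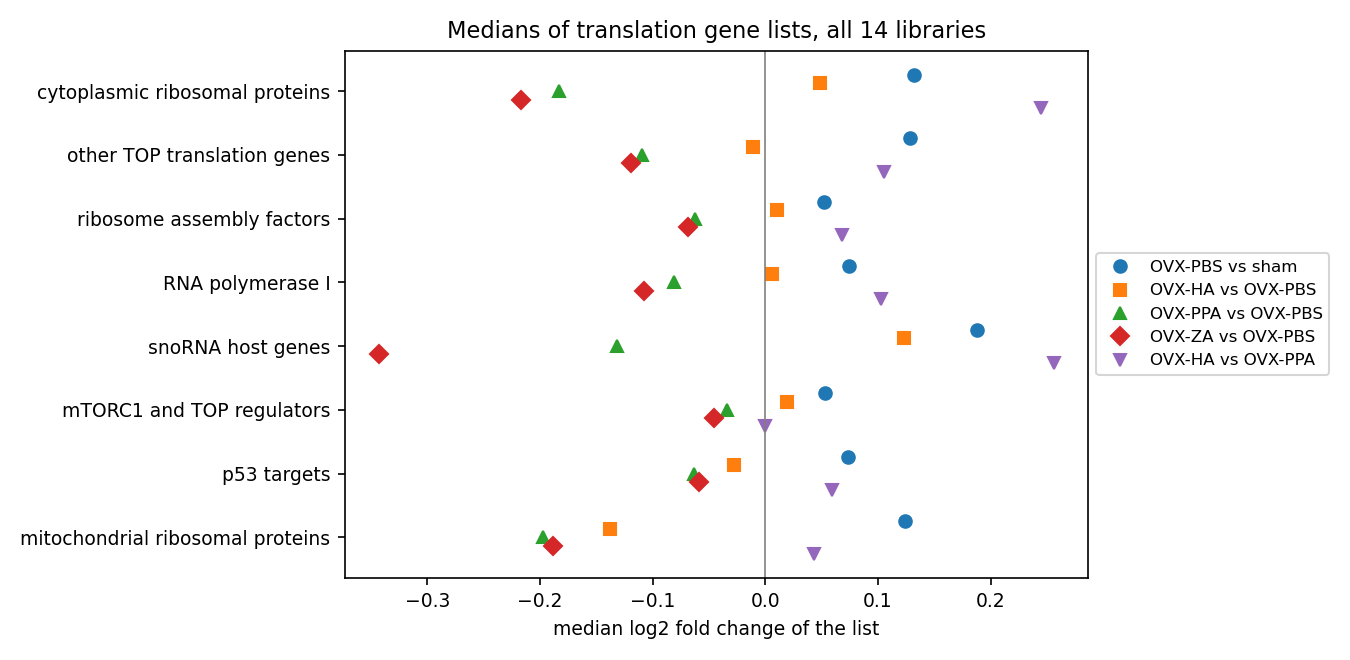
Median log2 fold change (x axis) of each list of translation genes (rows) in the 5 comparisons (symbols), all 14 libraries. The mitochondrial list lies at -0.14 in OVX-HA against OVX-PBS, where the cytosolic list lies at 0.05.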

How the data were processed

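Poly(A) RNA was made into stranded mRNA libraries and read as single 75-base reads, per the labels' protocols and the series' design text. Per the submitters' processing notes, the tools included STAR 2.7.8a, Bowtie2 2.2.5, Partek and CASAVA 1.8.1, and the build was mm10, without roles. No source used here names the annotation, the counter, the use of strand or the treatment of reads with several matches. The authors deposited estimated counts per symbol and library, not normalized, which were rounded for the tests. The deposited log2 table equals log2 of the same counts minus a constant per library to within 0.0055 and was not tested.

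Genes were filtered on low counts and scaled by TMM, and all 14 libraries were fitted with edgeR 4.0.16 (quasi-likelihood test, limma 3.58.1, R 4.3.3), with 9 residual degrees of freedom and Benjamini-Hochberg adjustment over 21761 genes. DESeq2 1.42.0 was an alternative. In simulated counts for OVX-ZA against OVX-PBS (21446 genes), 31 of the 100 2-fold changes and 77 of the 100 4-fold changes were recovered, with 5 false calls. CPM per kilobase used the length of each gene's main coding transcript in GENCODE M21. Counts of -ps symbols added to their parent were an alternative chosen after seeing the data.

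Named genes were members with the smallest p in each comparison, paralogs, members of defined roles, the extremes of level and of variation, and from each list 2 genes with the smallest p. Members and lists were chosen with earlier results of these data known. Coordinates are those of GRCm38. Members on chromosome 18 have no sequence shown. An alternative of the share of counts, with further ribosomal protein genes added, and the medians over the relatives outside the rule are not reported here.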

Additional observations from a re-analysis of the deposited data

How the results depend on the processing

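No member passed the FDR under any of 68 alternatives of the 5 called counts (other scaling, filter, tool, libraries or replicate block). Over all genes the largest count was 30 of 28214, by DESeq2 for OVX-ZA against OVX-PBS. The smallest adjusted p of a member was 0.380 (edgeR). Of 68 alternatives of the medians, 64 moved by less than the spread between replicates, an SD of 0.26 log2 units. That spread is wider than every main median, so a median could fall to 0 or turn sign within it. The count therefore does not show that the medians are stable. Leaving out 1 library gave medians of 0.04 to 0.19 for OVX-PBS against sham, -0.32 to 0.20 for OVX-HA against OVX-PBS, -0.32 to -0.08 for OVX-PPA against OVX-PBS, -0.24 to -0.13 for OVX-ZA against OVX-PBS and -0.15 to 0.40 for OVX-HA against OVX-PPA. Of these, OVX-HA replicate 2 turned the sign in both comparisons of OVX-HA (-0.32 and -0.15), and OVX-PBS replicate 3 in the first (-0.04). In the 12 nervous-tissue libraries the same medians were -0.25 and -0.15. The cause was not tested. Same-numbered libraries of different groups had a median correlation of deviations of 0.018 (26 pairs, 8 over 0.1) against 0.013 for other pairs. These values cannot exclude pairing by replicate number, because deviations were taken from means of 2 or 3 libraries. The largest correlation, 0.657, joined OVX-PBS replicate 1 and OVX-HA replicate 2. With the replicate block the medians were 0.13, 0.02, -0.23, -0.21 and 0.26, with 0 calls in each. With mitochondrially encoded counts left out of the total, the share of counts was 1.02% (sham), 1.05% (the OVX-PBS group), 1.10% (OVX-HA), 0.973% (OVX-PPA) and 0.966% (OVX-ZA). Leaving out 1 library moved the share between 0.839 and 0.936% in sham, 0.900 and 0.927% in OVX-PBS, 0.777 and 1.08% in OVX-HA, 0.814 and 0.876% in OVX-PPA, and 0.816 and 0.860% in OVX-ZA. With the counts of its pseudogenes added to Rpl3, the median ratio of Rpl3l to Rpl3 per kilobase turned from 2.40 to 0.431. Depth limits Rpl23a, Rps27 and Rpl36a, at a few CPM, and shared reads limit them further.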
